A study of Mus musculus with 26 samples.

Results

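The mucus genes of goblet cells were followed in bulk RNA from the proximal small intestine (SI) of mice with an inducible gene deletion in intestinal epithelial cells (IECs). The set held 10 genes of 55487 in the table, chosen by name as goblet cell mucus components and secretory lineage factors: Muc2, Fcgbp, Clca1, Clca3b, Zg16, Tff3, Spink4, Agr2, Spdef and Atoh1. All 10 passed the filter on low counts in every comparison. The question was how transcripts of the mucus and of the secretory machinery moved after the deletion in adult IECs.

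Libraries came from 26 mice in 4 groups. Knockout (KO) mice were homozygous for a floxed allele and carried the tamoxifen-inducible Villin-creERT2 transgene, which is driven by an epithelial promoter, and controls were littermates with the same floxed allele and no Cre. All mice were adults of 8 to 12 weeks on a C57BL/6N background and all received 5 daily injections of tamoxifen, the controls included. Tissue was taken 3 days after the last injection from 7 KO and 7 control mice, and 7 days after it from 6 KO and 6 control mice. The sample was a whole piece of gut wall, so epithelium, lamina propria and muscle contributed RNA, and fewer goblet cells and less RNA per goblet cell cannot be told apart.

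Goblet cells are the mucus-secreting cells of the intestinal epithelium. They arise from crypt progenitors in which Notch signalling is low and ATOH1 is active, and SPDEF then drives their maturation. Their granules release MUC2, a gel-forming mucin that is folded in the endoplasmic reticulum (ER), heavily O-glycosylated in the Golgi and unfolded in the lumen into a net that FCGBP, CLCA1, ZG16 and TFF3 join.

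Each library held between 3720168 and 6338016 counts, and levels are given as CPM, counts scaled to the total of the library. Cuts of the tissue were uneven. In 4 libraries, KO day 3 replicate 1, control day 3 replicates 5 and 7 and control day 7 replicate 2, Muc6, the mucin of gastric and Brunner glands, stood at 2800 to 20300 CPM, against at most 74.6 CPM in the other 22. Tff2, Gkn3 and Pgc were high in the same libraries. In 2 of the 4, control day 3 replicate 5 and control day 7 replicate 2, the gastric surface genes Gkn1 (795 and 1110 CPM), Gkn2 (851 and 701), Tff1 (2190 and 2700) and Muc5ac (67.2 and 125) were high too, and the parietal cell gene Atp4b was at 0 in all 26. Pancreatic Cpa1 exceeded 1000 CPM in another 4 libraries.

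The sequences just before the transcription start of members whose values carry the account are shown here, 5′ to 3′ on the strand of the gene. They come from the RefSeq promoter table for GRCm38.p6, which held 6 of the 10 members. In the first pair, Muc2 and Fcgbp, shown because these transcripts moved together from mouse to mouse, capitals mark CAGCTG, an E-box of the kind that basic helix-loop-helix factors bind.
Muc2 (chr7:141690090-141690339, plus strand): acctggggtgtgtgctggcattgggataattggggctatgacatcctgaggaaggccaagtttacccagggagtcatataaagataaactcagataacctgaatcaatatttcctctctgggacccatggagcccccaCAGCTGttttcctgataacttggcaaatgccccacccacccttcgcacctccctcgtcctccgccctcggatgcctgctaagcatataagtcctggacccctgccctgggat
Fcgbp (chr7:28070986-28071235, plus strand): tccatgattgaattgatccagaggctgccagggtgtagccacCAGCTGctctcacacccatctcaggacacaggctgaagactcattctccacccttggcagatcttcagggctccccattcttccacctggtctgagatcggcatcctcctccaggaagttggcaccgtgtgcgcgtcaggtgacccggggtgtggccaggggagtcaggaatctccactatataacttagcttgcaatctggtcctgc

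CAGCTG, which reads the same on both strands, was in 13% of 32851 promoters over the 250 bases before the start, and among the 6 members it was in Muc2 and Fcgbp alone. The window before Clca3b is shown because its transcript changed most, and capitals mark TGTTTAC, a forkhead-like string.
Clca3b (chr3:144849358-144849552, minus strand): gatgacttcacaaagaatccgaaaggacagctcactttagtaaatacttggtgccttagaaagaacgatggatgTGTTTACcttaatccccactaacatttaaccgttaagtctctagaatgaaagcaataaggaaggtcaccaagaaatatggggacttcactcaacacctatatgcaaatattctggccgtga

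TGTTTAC, searched on both strands, was in 3.17% of the promoters and, of the 6 members, in Clca3b only. Other strings were searched too. ATGCAAAT was in 1.6% of the promoters and also in Clca3b only, and it stands unmarked in the window shown. GATAA and TATAAA, in 22.6% and 12.4% of the promoters, were in Muc2 only. The caudal-like string TTTATG was in 10.8% of the promoters and in Agr2, Spdef and Clca3b. These shares are over the 250 bases before the RefSeq start, and the Clca3b window shown leaves out the last 55 of them, which lie inside the GENCODE gene and hold its match to TTTATG. These matches describe letters and not bound sites.

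**Figure D1:**
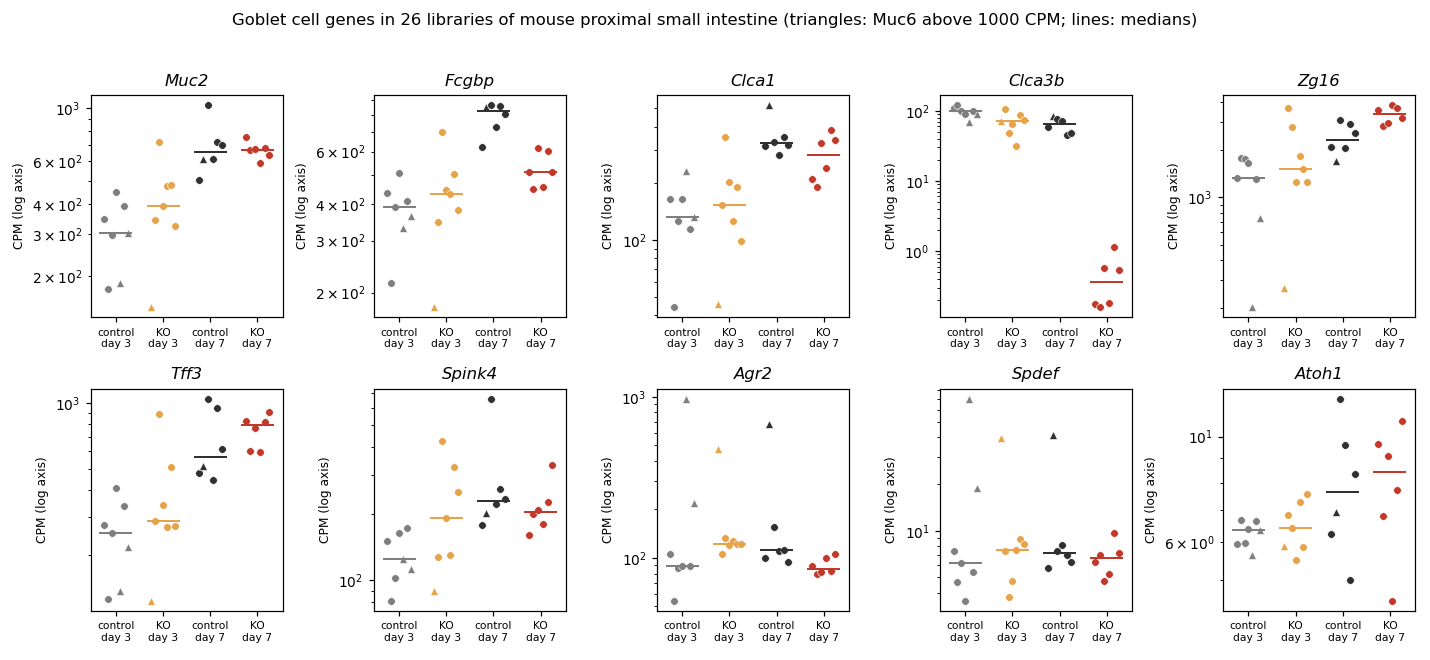
CPM of the 10 genes on log axes in every library, by group, with lines at the group medians and triangles for the 4 libraries with Muc6 above 1000 CPM. Clca3b fell to between 0.159 and 1.15 CPM in the KO mice at day 7, Fcgbp of those mice lay below every control, and the highest Agr2 and Spdef values were triangles.

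At day 3, KO and control mice did not differ detectably in any of the 10 genes. By edgeR, 0 of 10 passed an adjusted p of 0.05, against 1.43% of all genes tested, and DESeq2 gave 0 as well. At an unadjusted p under 0.05 there was 1, Spink4. The estimates were positive for 7 genes and negative for 3, with a median log2 fold change of 0.33 against -0.0313 over all genes tested. They came with standard errors from 0.14 for Atoh1 to 0.68 for Spdef. In simulated data for this comparison, 40.9% of 2-fold and 77.6% of 4-fold changes were recovered. The changed genes were drawn at random from all genes tested, so these shares do not give the power for the 10 genes.

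Muc2 spread from 149 CPM through a median of 393 to 721 in the 7 KO mice at day 3, and from 177 through 303 to 447 in the controls. The groups overlapped, with 3 KO mice above all controls and 1 below all of them (log2 fold change 0.55 ± 0.28, adjusted p = 0.417). Spink4, a Kazal-type protease inhibitor stored in goblet granules, ran from 89.3 through 192 to 423 CPM in KO mice and from 81.1 through 125 to 173 in controls. In 4 of 7 KO mice it was above every control, and the estimate of 0.86 ± 0.29 had an adjusted p of 0.172. It passed when KO replicate 1, a library with gland transcripts, was left out.

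For Agr2 and Spdef the day-3 direction turned on the gland libraries. AGR2 is the protein disulfide isomerase of the ER that MUC2 needs for its assembly. It lay at 105, 122 and 473 CPM (lowest, median, highest) in KO mice and at 54.3, 89.0 and 973 in controls, a log2 fold change of -0.39 ± 0.59. Without the 4 gland libraries, the 6 KO mice averaged 122 ± 9.48 CPM (SD) and the 5 controls 84.9 ± 18.9, a log2 fold change of 0.65 with an adjusted p of 0.0324. The DESeq2 run, from which no library was left out, gave 0.73 with an adjusted p of 0.242, whereas edgeR with the DESeq2 size factors gave -0.42. Leaving out 1 library moved the edgeR estimate between -0.84, without KO replicate 1, and 0.76, without control replicate 5 at 973 CPM. How DESeq2 treated the value of 973 CPM was not tested, so its positive sign cannot be read as independent of the gland libraries. Spdef had an estimate of -0.47 ± 0.68 in all libraries, 0.46 (adjusted p = 0.404) without those 4 and 0.85 (adjusted p = 0.143) with stomach and pancreatic scores as covariates.

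At day 7 the set split. Of the 10 genes, 1 was higher and 3 were lower in KO mice, and the other 6 did not pass. The share of 4 in 10 was near the 38.5% of all genes called in that comparison (19.7% higher and 18.8% lower), and the median log2 fold change was -0.37 against -0.019 over all 20259 genes tested.

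**Figure D2:**
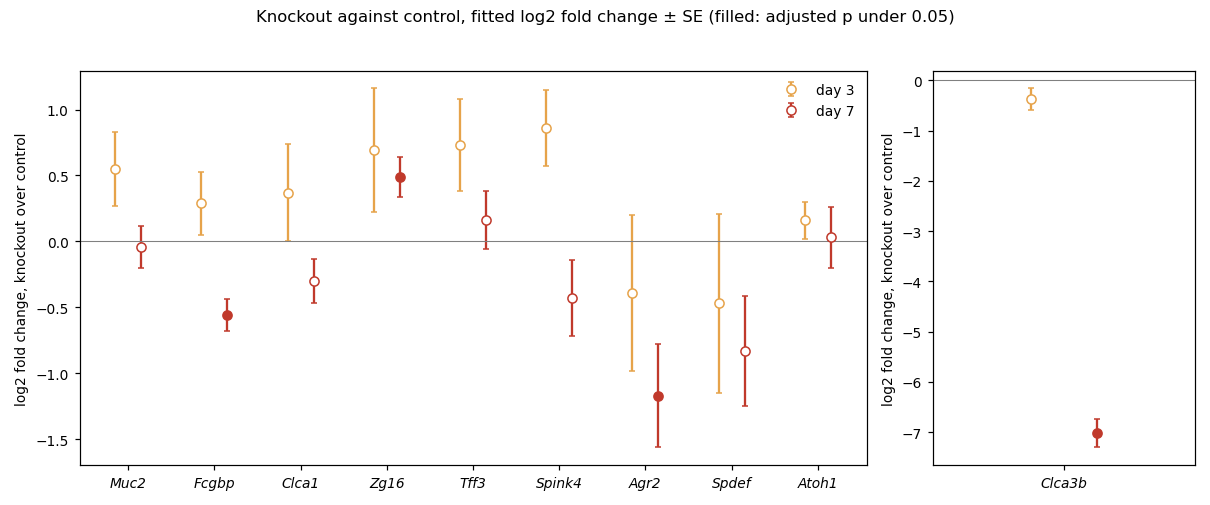
Fitted log2 fold change of KO over control with its SE for each gene at day 3 and day 7, filled where the adjusted p was under 0.05, with Clca3b on a scale of its own. At day 3 no symbol is filled, and at day 7 Fcgbp, Zg16, Agr2 and Clca3b are.

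Muc2, the main secreted mucin of the intestine, did not pass. It was at 593, 673 and 762 CPM in the 6 KO mice and at 504, 659 and 1030 in the 6 controls. The KO values lay inside the control range, and the estimate was -0.04 ± 0.16 (adjusted p = 0.859). Clca1, a secreted metalloprotease that acts on the mucus gel, was at 191, 284 and 382 CPM in KO mice against 283, 325 and 520 in controls, which overlapped (-0.30 ± 0.17, adjusted p = 0.194).

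Fcgbp, a large mucus protein that binds MUC2, was lower. It lay at 447, 512 and 618 CPM in KO mice and at 623, 826 and 863 in controls, so that every KO mouse was below every control. The log2 fold change was -0.56 ± 0.12, a fall of 1.47-fold (adjusted p = 0.00118), and 11.6% of all genes tested were likewise lower without overlap. With the spread estimated over all 26 libraries the estimate was -0.55 and the adjusted p 0.0532. Of the 35-base words in the last 500 bases of the Fcgbp transcripts, 19.7% also occur in the related gene 9530053A07Rik, whose counts summed to between 1 and 7 in each group.

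Zg16, a lectin of the granule that binds Gram-positive bacteria, was higher. It lay at 2830, 3380 and 3850 CPM in KO mice and at 1690, 2320 and 3100 in controls, with 4 of 6 KO mice above all controls. The log2 fold change was 0.49 ± 0.15, a rise of 1.41-fold (adjusted p = 0.016). The call was lost without control replicate 1 or replicate 4, with stomach and pancreatic scores as covariates (0.35, adjusted p = 0.0512) and with the spread of all 26 libraries (0.50, adjusted p = 0.394). The value of 3850 CPM was in KO replicate 4, where pancreatic Cpa1 was at 2510 CPM. At day 3 the highest Zg16 of each group, 3680 and 1780 CPM, also lay in a library with Cpa1 above 1000 CPM. The day-7 controls had no such library. Without the Cpa1 libraries the day-7 estimate was 0.45 (adjusted p = 0.0425). Whether pancreatic tissue added to Zg16 was not tested.

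Clca3b changed far more than the rest. This member of the Clca family, the calcium-activated chloride channel regulators, lies at chr3:144822623-144849357 on the minus strand. It was at 45.8, 64.4 and 85.6 CPM in the 6 controls and at 0.159, 0.361 and 1.15 CPM in the 6 KO mice, in which 1 to 7 counts were seen per library. Summed over the mice, 16 counts in KO stood against 2096 in controls, and the ratio of CPM was 136 with a 95% exact interval of 83.8 to 239 that covers counting error only. The fitted log2 fold change was -7.02 ± 0.28 (adjusted p = 1.6e-12), and it was -6.95 without the gland libraries. At day 3 Clca3b was at 31.2, 72.1 and 106 CPM in KO mice and at 68.8, 98.1 and 121 in controls. There 3 of 7 KO mice lay below every control, and the estimate was -0.37 ± 0.21 (adjusted p = 0.482). In deviations from the group means over the 26 libraries, Clca3b correlated with the other genes of the set at r from -0.11 to 0.26. These r include the 6 KO libraries with 1 to 7 counts, where counting error is large, so they cannot show that Clca3b moved apart from those genes. The cells its transcripts came from were not identified.

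The loss was shared by 1 of its neighbours in the Clca cluster on chromosome 3, Clca3a2 and Clca3a1, which were added after their values were seen. Clca3a2 fell from 3.76, 5.83 and 9.34 CPM in controls to 0, 0.0823 and 0.725 in KO mice at day 7, from 202 counts to 8, with 0 counts in 3 of the 6 KO libraries (log2 fold change -4.59 ± 0.49, adjusted p = 4.7e-07). Clca3a1 was at 7.47, 10.1 and 13.9 CPM in KO mice and at 5.43, 8.68 and 12.6 in controls, and its estimate was 0.18 ± 0.21 (adjusted p = 0.562). None of the 35-base words in the last 500 bases of the Clca3b transcript occurs in another gene, whereas 30.7% of those of the Clca3a2 isoforms do, Clca3b among the sources, so reads of Clca3a2 are less certain. Of the 5 other Clca genes tested, 2 were lower and 0 higher, against 18.8% of all genes called lower. The 2 were Clca3a2 and Clca4a, which is named after its value was seen. Clca4a lay at 7.16 to 17.5 CPM in KO mice and at 8.13 to 187 in controls, and its estimate of -2.17 (adjusted p = 0.0171) rested on control replicate 3 at 187 CPM, without which it was -0.48 (adjusted p = 0.168). Clca3a2 no longer passed the filter on low counts when any 1 of the 3 KO libraries with counts was left out.

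**Figure D3:**
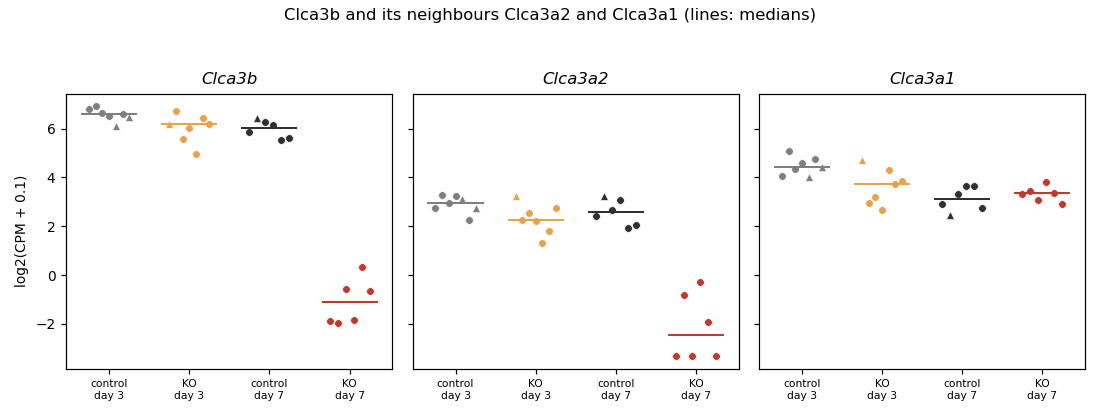
Clca3b, Clca3a2 and Clca3a1 in every library as log2(CPM + 0.1), by group, with lines at the medians. Clca3b and Clca3a2 were lowest in the 6 KO mice at day 7, without overlap with any other group. Clca3a1 of these mice, at 7.47 to 13.9 CPM, overlapped the day-7 controls at 5.43 to 12.6.

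The secreted peptides did not pass at day 7 in the fit without covariates. Tff3, a trefoil peptide that aids epithelial repair, was at 596, 796 and 908 CPM in KO mice and at 445, 566 and 1050 in controls (0.16 ± 0.22, adjusted p = 0.608). Spink4 was at 160, 204 and 332 CPM in KO mice and at 178, 228 and 659 in controls (-0.43 ± 0.29, adjusted p = 0.257). The Spink4 estimate rested on control replicate 3, at 659 CPM, which also had the highest Muc2, and it was 0.03 without that library. With stomach and pancreatic scores as covariates Spink4 passed, at -0.61 with an adjusted p of 0.049.

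Agr2 was lower at day 7, by an amount that 1 library set. It was at 79.1, 85.6 and 105 CPM in KO mice and at 94.2, 112 and 683 in controls, and all 6 KO mice were below the control median. The log2 fold change of -1.17 ± 0.39 (adjusted p = 0.0244) became -0.37 (adjusted p = 0.0413) without control replicate 2, the gland library at 683 CPM. With stomach and pancreatic scores as covariates the estimate was -0.29 and the call was lost (adjusted p = 0.112), as it was with the spread of all 26 libraries (-1.16, adjusted p = 0.137). The 5 remaining controls averaged 115 ± 24.6 CPM (SD) and the 6 KO mice 89.4 ± 10.6.

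The transcription factors did not pass at day 7 either. Spdef was at 4.74, 6.64 and 9.71 CPM in KO mice and at 5.76, 7.14 and 41.3 in controls, and its estimate of -0.83 ± 0.42 became -0.04 without the gland library and 0.07 with the covariates. Atoh1, the factor that commits cells to the secretory fate, was at 4.53, 8.42 and 10.8 CPM in KO mice and at 5.01, 7.66 and 12.0 in controls (0.03 ± 0.23, adjusted p = 0.934). Both rested on few counts, 25 to 60 per KO library for Atoh1.

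Levels relative to Muc2 in the same library separated the groups further for Zg16. The log2 ratio of Zg16 to Muc2 ran from 2.08 to 2.70 in the KO mice at day 7 and from 1.46 to 2.05 in the controls, without overlap. The KO mouse with the highest Zg16 and the lowest Muc2, 3850 and 593 CPM, was replicate 4, with Cpa1 at 2510 CPM. The ratio of Fcgbp to Muc2 ran from -0.58 to -0.13 in KO mice and from -0.26 to 0.47 in controls. For Tff3 the ranges were -0.16 to 0.50 and -0.47 to 0.39. These ratios were added after the levels had been seen and carry no test.

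The knockout effect itself was compared between the days in all 26 libraries. The estimate was negative for all 10 genes, which share the same libraries, with a median of -0.61 against 0.0344 over all genes tested. Of the 10, 2 passed, both lower, against 18.4% of all genes called, and 9.74% called lower. Clca3b changed by -6.63 ± 0.42 (adjusted p = 9.8e-12). Spink4 changed by -1.27 ± 0.45 with an adjusted p of 0.0475, and it no longer passed in 16 of 26 fits that left out 1 library each. Fcgbp came to -0.83 ± 0.30 (adjusted p = 0.0501), and it passed by DESeq2 (-0.86, adjusted p = 0.0211). Without the gland libraries Agr2 passed too, at -0.99 with an adjusted p of 0.00119. For the other 6 genes a difference between days was not detectable.

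In control mice the mucus genes were higher at day 7 than at day 3 after tamoxifen. Of the 10 genes, 7 were higher and 0 lower, against 36.0% of all genes called in either direction and 19.7% called higher. Muc2 rose by 1.57 ± 0.22 on the log2 scale, Fcgbp by 1.42 ± 0.17, Clca1 by 1.68 ± 0.27, Tff3 by 1.83 ± 0.29 and Spink4 by 1.57 ± 0.30. For these 5 genes every day-7 control lay above every day-3 control, which was so, in the higher direction, for 3.94% of all genes tested.

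Zg16 rose by 1.34 ± 0.34 in controls and Atoh1 by 0.73 ± 0.19 (adjusted p = 0.00593 and 0.00696), with overlap between the days. Agr2, Spdef and Clca3b had estimates of 0.15 ± 0.68, -0.08 ± 0.70 and -0.23 ± 0.15. Without the gland libraries all 3 passed, Agr2 at 0.82, Spdef at 0.71, a turn of its sign, and Clca3b at -0.43.

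Other epithelial genes moved with the days in the control mice, and the share of epithelium in the pieces was not measured. Of all genes, 36.0% were called in this comparison, and 19.7% were called higher. Absorptive enterocyte markers were higher at day 7 for 7 of 7 genes, with a summed level of 667 to 10400 CPM at day 3 and 12700 to 24900 CPM at day 7, and pan-epithelial genes for 6 of 7. Smooth muscle markers were lower for 5 of 5, from 1520 to 2760 CPM summed at day 3 to 528 to 949 CPM at day 7. Day after tamoxifen and any batch of processing cannot be told apart here.

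In KO mice, 4 of the 10 genes were higher at day 7 than at day 3 and 1 was lower, against 36.9% of all genes called, 16.7% higher and 20.2% lower. Muc2 rose by 0.88 ± 0.25, Tff3 by 1.16 ± 0.33, Clca1 by 0.92 ± 0.34 and Zg16 by 1.04 ± 0.39 (adjusted p = 0.0118, 0.0104, 0.0424 and 0.0471). The last pair were near the threshold: Clca1 was lost in 6 and Zg16 in 9 of 13 fits that left out 1 library, Muc2 and Tff3 in 0. Clca3b changed by -6.97 ± 0.40 (adjusted p = 3.2e-09), and Fcgbp and Spink4 had estimates of 0.48 ± 0.23 and 0.18 ± 0.29.

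Ordered by their medians, the groups ran KO day 7, control day 7, KO day 3, control day 3 for Muc2, Zg16, Tff3 and Atoh1, and control day 7, KO day 7, KO day 3, control day 3 for Fcgbp, Clca1 and Spink4. Neighbours in these orders overlapped, except for Fcgbp between the control and KO mice at day 7. Clca3b ran control day 3, KO day 3, control day 7, KO day 7, and only the step to the last was without overlap.

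The spread between mice differed by group. For Muc2 the coefficient of variation was 42.8% in KO and 32.3% in control mice at day 3, and 8.28% and 25.9% at day 7. For Zg16 it was 62.4% and 46.8% at day 3, where the lowest value in each group, 267 and 202 CPM, came from a gland library, and 12.3% and 22.8% at day 7. Without the gland libraries the Zg16 values were 47.8% and 14.6% at day 3 and 12.3% and 18.5% at day 7. The controls were then no longer more spread at day 3 than at day 7.

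Within groups, Muc2, Fcgbp and Tff3 moved together from mouse to mouse. Deviations from the group means of log2 CPM correlated across the 26 libraries with r = 0.92 for Muc2 and Fcgbp, 0.93 for Muc2 and Tff3, and 0.86 for Fcgbp and Clca1. The values of a library share its depth and its cell composition, so these r describe the libraries. Among the 9629 genes that averaged 50 counts or more, the 5 most like Muc2 included Rfk, which makes flavin mononucleotide (r = 0.94), Tff3 and the enterocyte fatty acid carrier Fabp1 (both 0.93), and Fcgbp. Atoh1 was under that minimum.

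Agr2 and Spdef followed the gland transcripts. Agr2 was at 219 to 973 CPM in the 4 libraries with high Muc6 and at 54.3 to 156 in the other 22, and Spdef at 18.8 to 70.7 against 3.55 to 9.71, in neither case with overlap. Their deviations correlated with r = 0.93 in all libraries and 0.16 in the 22, and Muc2 and Agr2 with -0.34 and 0.72. Clca3b had r with the other 9 genes from -0.11 to 0.26 in all libraries and from -0.17 to 0.40 in the 22. Both include the 6 KO libraries of day 7 with 1 to 7 counts, where counting error is large. Atoh1, at 21 to 70 counts per library, had r from -0.09 to 0.37 and from 0.00 to 0.32. At so few counts a weak r does not show that a gene moved apart from the others.

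**Figure D4:**
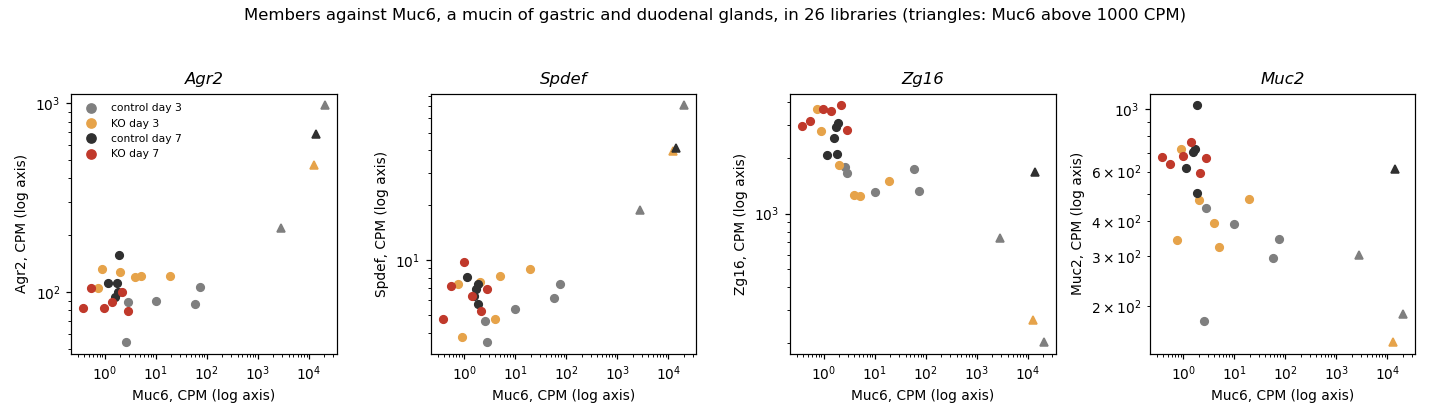
Agr2, Spdef, Zg16 and Muc2 against Muc6 in 26 libraries, in CPM on log axes, coloured by group, with triangles for the 4 libraries above 1000 CPM of Muc6. Agr2 and Spdef are highest in those libraries, at 219 to 973 and 18.8 to 70.7 CPM, and the lowest Zg16 values, 267 and 202 CPM, are among them.

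Gene lists related to goblet cells, which leave out the 10 genes, were read as well. The lists are not limited to genes of goblet cells. Absorptive enterocyte markers were lower in KO mice for 6 of 7 genes at day 7. The cells from which the changes in the lists came were not tested. At day 3, 0 genes of any list passed by edgeR, where 1.43% of all genes did, and DESeq2 called 2 of the granule list, both higher. At day 7 most calls were lower, in a comparison where 18.8% of all genes were called lower and 19.7% higher. Of 16 tested genes for other granule and secreted proteins, 7 were lower and 1 higher (median log2 fold change -0.84). Lypd8, which keeps flagellated bacteria from the epithelium, fell by 2.27, from 1070 ± 162 CPM (SD) in controls to 220 ± 50.9 in KO mice. The chemokine Ccl6 fell by 1.57 and the actin-severing Scin by 1.35. Guca2a, the guanylin precursor, was the 1 that rose, by 1.02 ± 0.34 (adjusted p = 0.0227), and is named after its value was seen. Its call was lost without any 1 of control replicates 1, 4, 5 and 6.

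Of 12 tested genes for ER folding and secretion, 8 were lower and 1 higher (median -0.69). Sdf2l1, a chaperone cofactor of the ER, fell by 1.85, Ern2, the ER stress sensor of goblet cells, fell 2-fold, and the disulfide isomerase Pdia3 fell by 0.76, from 482 ± 102 to 278 ± 27.7 CPM. Hspa5, the ER chaperone BiP, was the 1 that rose, by 0.53 (adjusted p = 0.0065, named after its value was seen). The highest control Hspa5, 2030 CPM, was in control replicate 2, the gland library, and without it the rise was 0.66. The counts of this list include that library, and its part in the lower calls is not given here. Xbp1, a transcription factor of the unfolded protein response, had an estimate of -0.13 ± 0.10.

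Of 20 tested genes of mucin glycosylation, 9 were lower and 3 higher (median -0.75). The sialyltransferase St3gal4 fell by 1.93, from 307 ± 51.9 to 79.4 ± 16.3 CPM, the sulfotransferase Chst4 fell 2-fold and Galnt10, which starts O-glycan chains, fell by 0.77. C1galt1, the core 1 synthase, and Galnt3 rose by 0.82 and 0.86, and St3gal6 by 0.25 (named after their values were seen). C1galt1 and Galnt3 were highest among controls in the gland library, at 41.9 and 45.2 CPM, and rose by 0.96 and 1.14 without it. The counts of this list include that library too, and its part in the lower calls is not given here. The St3gal6 call was lost in 5 of 12 fits that left out 1 library.

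Genes of mucus release and processing were lower in 7 of 8 cases and higher in 0 (median -1.21). The meprins Mep1a and Mep1b, of which meprin beta frees mucus from the epithelium by cutting MUC2, fell by 3.51 and 3.31, and Nlrp6, an innate sensor tied to mucus secretion, fell by 2.94, from 187 ± 20.8 to 23.8 ± 2.64 CPM. These genes are also active in enterocytes. Cftr, the chloride channel, had an estimate of -0.26 ± 0.16. Of 6 other mucins tested, 5 were lower and 0 higher (median -1.59), led by the membrane mucins Muc4 (-3.53), Muc3 (-1.53) and Muc13 (-1.51, from 1310 ± 195 to 450 ± 61.5 CPM), whereas the call for Muc6 rested on the gland library of the controls.

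Of 8 tested transcription factors of the secretory lineages, 3 were lower and 0 higher (median -0.38). The share called was near the 38.5% of all genes called in either direction. The 3 were Hes6 (-1.34, from 38.4 ± 6.82 to 14.8 ± 2.58 CPM) and, named after their values were seen, Gfi1 (-1.09) and Insm1 (-1.40), both with means under 4 CPM. Of 13 Notch pathway genes, 4 were higher and 5 lower (median -0.09). Notch2 rose by 0.88, Rfng fell by 0.87, and the target Hes1 fell by 0.38. Without the gland libraries the secretory factors had 2 higher and 3 lower.

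**Figure D5:**
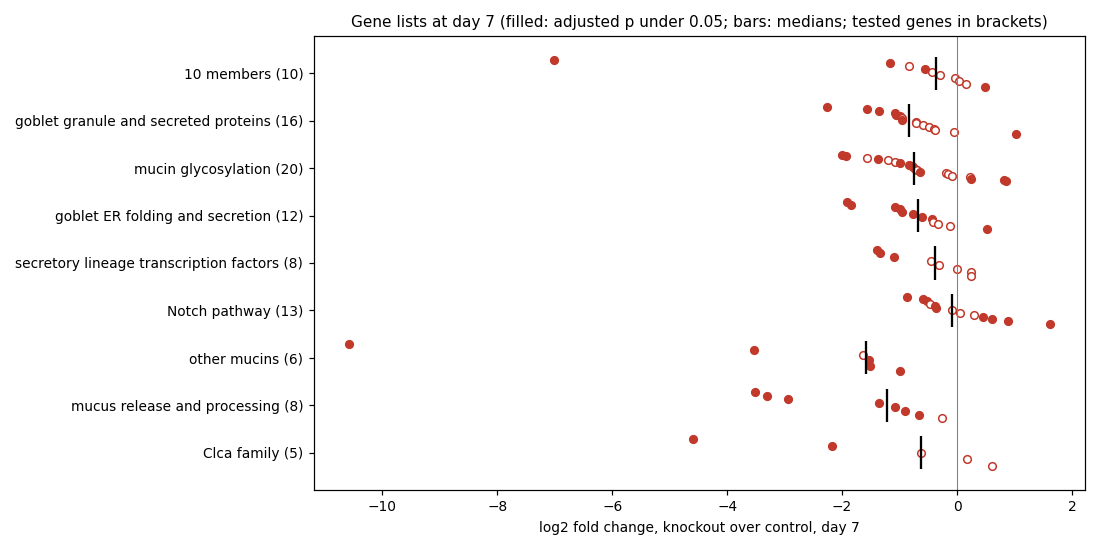
Log2 fold change of KO over control at day 7 for the 10 genes and for 8 related gene lists, 1 symbol per tested gene, filled where the adjusted p was under 0.05, with bars at the medians. The medians of the lists for mucus release and other mucins, -1.21 and -1.59, lie farthest to the left, and the farthest single symbols are Muc6 and Clca3b.

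Markers of the other cell types in the tissue differed at day 7 as well, and their part in the values of the 10 genes was not tested. Of all genes, 19.7% were called higher and 18.8% lower in that comparison. Absorptive enterocyte markers were lower for 6 of 7 genes, with a summed level of 2850 to 4140 CPM in KO mice and 12700 to 24900 in controls. Stem cell markers were lower for 5 of 6 (85.5 to 135 against 360 to 449 CPM), with Olfm4 at -7.17 ± 0.24. Paneth cell markers were lower for 1 of 6 tested (2200 to 4820 against 2730 to 8350 CPM), enteroendocrine markers for 2 of 9 (541 to 648 against 546 to 704 CPM) and smooth muscle markers for 0 of 5 (595 to 870 against 528 to 949 CPM). Tuft cell markers were lower for 2 and higher for 1 of 5, and plasma cell and lymphocyte markers lower for 3 and higher for 1 of 5 (1990 to 3590 against 4980 to 10700 CPM). Pan-epithelial genes were higher for 2 and lower for 3 of 7 (3200 to 3660 against 3590 to 4750 CPM), and pancreatic genes passed in 0 of 9.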

How the data were processed

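RNA was sequenced from the 3′ end (QuantSeq) in 26 mice, 1 library each. The authors trimmed reads with cutadapt 2.10, aligned them with Subread to GRCm38 and assigned them to exons with featureCounts 2.0.1, splitting reads that overlap several genes. The tool names are those of the submitters' processing notes. The deposited estimated counts (95% of them whole, all of them whole for the 10 genes) were rounded. The deposited CPM values equal counts over the library total and were used for levels only. Strandedness of the counting is not given in the sources used here, and no exon of another gene overlaps the 10.

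Genes with 0 counts in most libraries of either group were left out. edgeR 4.0.16 quasi-likelihood tests with TMM scaling were run per comparison (SE = log2 fold change over the root of F), with Benjamini-Hochberg adjustment over all genes tested and a threshold of 0.05. Each library is 1 mouse. DESeq2 1.42.0 and other settings served as alternatives. In simulated data for the day-7 comparison (20259 genes, 200 changed), 75.5% of 4-fold and 56.1% of 2-fold changes were recovered. The 200 were drawn at random from all genes tested, whereas 7790 genes were called in the real data. These shares therefore do not give the power for the 10 genes. The 10 genes and the lists (173 of 174 symbols matched, and 1 with 2 gene IDs was read at the higher one) were chosen with earlier results of these data known. From each list up to 3 genes per direction are named, those past the threshold at day 7 with a mean of 50 counts and no overlap between groups. The deleted gene is not reported here.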

Additional observations from a re-analysis of the deposited data

Results flagged for a closer look

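In 40 groups of values (10 genes in 4 groups), 8 held a library far from the others by Dixon's test, where about 2 would be by chance. Of these values, 7 came from gland libraries, those with Muc6 above 1000 CPM. Agr2 was at 473 CPM in KO day 3 replicate 1 (next 133), 973 CPM in control day 3 replicate 5 (next 219) and 683 CPM in control day 7 replicate 2 (next 156). Spdef was at 39.7, 70.7 and 41.3 CPM in the same 3 libraries (next 8.9, 18.8 and 8.08). Clca1 was at 520 CPM in control day 7 replicate 2 (next 354). Spink4 was at 659 CPM in control day 7 replicate 3 (next 257), which holds no raised gland transcripts.

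The knockout effect differed between day 7 and day 3, by the interaction term of edgeR, for Spink4 (-1.27 on the log2 scale) and Clca3b (-6.63).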

How the results depend on the processing

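Clca3b at day 7 kept its direction and its call under each alternative run. Members called at day 3 came to 1 rather than 0 with stomach and pancreatic scores as covariates and without the gland libraries (Agr2 in both, at 0.86 and 0.65, the sign turned, as it was, without a call, by DESeq2 at 0.73 and with a replicate block at 0.32), and ranged from 0 to 1 when 1 library was left out. At day 7 there were 1 (all 26 libraries in 1 fit) and 2 (at least a 2-fold change) rather than 4, and 3 to 4 with 1 library left out. With the covariates there were 3, Zg16 and Agr2 being lost and Spink4 gained. With the DESeq2 size factors in edgeR the day-3 estimate of Agr2 stayed negative, at -0.42, so these factors alone did not turn its sign. The day-3 estimate of Spdef turned positive without a call with the covariates and without the gland libraries, at 0.85 and 0.46. The change of the effect between days had 1 without a filter on low counts, 1 without the 4 libraries with Cpa1 above 1000 CPM and 4 without the gland libraries rather than 2, and 1 to 3 with 1 library left out, where 13 of 26 removals gave 1. Control day 7 against day 3 had 7 to 8 and the KO counterpart 3 to 6 with 1 library left out. Spdef in controls turned to 0.71 without the gland libraries. Both exclusions were chosen after seeing the data. Same-numbered mice of the 2 genotypes had r over 0.1 in 3 of 7 pairs at day 3 and 2 of 6 at day 7. The values ran from -0.41 to 0.57 and from -0.41 to 0.60. Differently numbered mice were not compared, so this check cannot decide whether the number marks pairs. A replicate block gave 3 members at day 7, with Agr2 at -0.70 (adjusted p = 0.101), 1 rather than 2 for the change between days, and 0, 7 and 4 in the other comparisons. Size factors moved the median of all genes by less than 0.1. The causes were not tested. Spdef and Atoh1 had 17 to 263 and 21 to 70 counts per library, which limits their precision.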

Other observations

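The genes whose deviations within groups were most like those of Clca3b were looked up after its values were seen. Among 9629 genes over 26 libraries, they were Nusap1 (r = 0.76), Dpm3 (0.71), Rbm27 (0.68), Haspin (0.68) and Olfm4 (0.67). Without the 4 gland libraries these r were 0.76, 0.72, 0.76, 0.71 and 0.72. Each r, with or without the gland libraries, includes the 6 KO libraries of day 7, where Clca3b had 1 to 7 counts. Counting error is large there, and Olfm4 was at 0.543 to 3.37 CPM in them. The genes were picked for the highest r among 9629, so they cannot tell which cells the Clca3b transcripts came from. Muc2, Tff3 and Fcgbp were not among these genes, which does not show that Clca3b moved apart from them.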
